A study of Mus musculus with 12 samples.

Results

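A set of 10 genes of the actin superfamily was followed through testis RNA of ICR mice, an outbred stock, given the germ cell toxicant busulfan. The 10 genes are 4 conventional actins (Acta2, Actg2, Actb and Actg1) and 6 actin-like genes (Actl7a, Actl7b, Actl9, Actrt1, Actrt2 and Actrt3). They are 10 of 22221 rows of the deposited table, found by their NCBI Gene IDs. They were chosen by their FPKM values in busulfan and in untreated libraries, so the contrast between busulfan and untreated testis is given for them as a description, with no test. The design has 4 groups of 3 libraries, and in 3 of the groups (9 libraries) the mice had been given busulfan once, when 3 weeks old. After busulfan, IMA10 mice received gut microbiota of donors given alginate oligosaccharide at 10 mg/kg body weight (spelled Aligina Oligosaccharide in the labels), IMC mice received gut microbiota of donors given ddH2O, and Sa mice received saline. Microbiota were given over 2 weeks, and testes were taken 3 weeks after that. Con mice were untreated, and their age is not given in the sources used here. The series text speaks of cultured testis, but no culture step is described. Nothing in the labels ties the 3 libraries of a group to separate animals, so every p-value reflects the spread of these libraries alone, and that spread may be technical.

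Actins are the globular proteins that assemble into filaments. Acta2 encodes the alpha actin of smooth muscle, which in the testis is found in the peritubular myoid cells around the tubules and in the muscle of vessel walls. Actg2 encodes the gamma actin of enteric smooth muscle, and in the mouse its transcript is also known from germ cells after meiosis. Actb and Actg1 encode the cytoplasmic actins present in nearly every cell. The 6 actin-like genes are relatives expressed mainly in developing sperm. In mouse and human spermatids ACTL7A, ACTL9, ACTRT1 and ACTRT2 belong to the perinuclear theca, the shell that holds the acrosome to the nucleus, and ACTL7B is needed for spermatids to take shape. The mouse protein of Actrt3 binds PFN3, a profilin of spermatids.

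Levels are FPKM (fragments scaled by transcript length and by library total), so they are per length and can be compared between genes. Sums of FPKM were 476127 to 519355 in busulfan libraries, against 569055 to 576093 in Con libraries. Between 12726 and 14474 genes reached 1 FPKM per library. No source used here gives read totals, so no counting interval can be given. Along the first principal component (88.6% of the variance) the busulfan libraries other than IMA10 replicate 3 scored 24.2 to 127.6 and that library scored -81.1, against -167.4 to -161.2 for the Con libraries. Each result below that rests on IMA10 replicate 3 is therefore given with and without it. The names of the Con columns start differently from those of the busulfan columns. Neither a batch effect nor a difference in age between Con and busulfan mice can be told apart from the treatment. The tissue label was checked on marker genes. Sertoli cell markers summed to 2714 to 16080 FPKM in busulfan libraries, against 520.2 to 615.3 FPKM in Con libraries, and Leydig cell markers to 1867 to 13620 FPKM in busulfan libraries, against 609.8 to 655.7 FPKM in Con libraries. Of the 6 epididymis markers, Lcn5 and Lcn8 had no row, and the other 4 summed to at most 5.28 FPKM in any library. Rnase10 made up that highest sum (IMA10 replicate 3) and had a mean of 4.12 FPKM in Con. Defb15, Crisp1 and Adam7 were at or near 0.

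The conventional actins and the actin-like genes stood on opposite sides in busulfan testis, with the exception of Actg2. Acta2, Actb and Actg1 were higher in all 3 busulfan groups than in Con by group mean. Actg2 and all 6 actin-like genes were lower. Each of the 10 genes passed the filter on low values. Of the 4 conventional actins all 4 had at least 1 FPKM in every library, and of the 6 actin-like genes 3 did.

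Promoter sequences are shown because Actl7a, Actl7b and Actl9, which were low in the same libraries, share an 8-base element, and because Acta2 and Actg1 carry forms of the CArG box. The cyclic AMP response element is bound in spermatids by CREM, and the CArG box is bound by serum response factor at many muscle and cytoplasmic actin genes. The sequences are the 250 bases before the RefSeq gene start in GRCm38.p6. Of the 10 genes 8 have a promoter in the table used, and Actb and Actg2 do not. Motifs were chosen after the promoters had been read, and both strands were searched. A match describes letters and not a bound site. Capitals mark the matches to TGATGTCA on either strand, a variant of the response element that reads TGACATCA on the other strand, and, near the far end in Actl7a, a CArG box with 1 core base changed. The regions are chr4:56743172-56743421 on the plus strand for Actl7a, chr4:56741426-56741675 on the minus strand for Actl7b and chr17:33432649-33432898 on the plus strand for Actl9, each written along the gene's own strand.
Actl7a: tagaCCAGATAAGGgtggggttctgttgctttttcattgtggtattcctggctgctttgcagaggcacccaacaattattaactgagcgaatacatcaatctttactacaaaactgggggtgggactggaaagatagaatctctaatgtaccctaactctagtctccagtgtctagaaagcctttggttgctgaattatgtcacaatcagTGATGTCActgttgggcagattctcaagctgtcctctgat
Actl7b: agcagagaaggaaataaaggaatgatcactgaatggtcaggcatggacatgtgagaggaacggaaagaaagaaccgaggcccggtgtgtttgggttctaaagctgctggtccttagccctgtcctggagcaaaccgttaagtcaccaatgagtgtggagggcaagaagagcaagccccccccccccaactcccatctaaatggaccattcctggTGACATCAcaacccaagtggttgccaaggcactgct
Actl9: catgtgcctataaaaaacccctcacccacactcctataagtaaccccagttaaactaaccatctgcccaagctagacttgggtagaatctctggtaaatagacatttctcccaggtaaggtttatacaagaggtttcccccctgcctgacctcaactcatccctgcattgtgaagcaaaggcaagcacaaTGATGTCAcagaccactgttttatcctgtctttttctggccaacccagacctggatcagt

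The element begins 40 bases before the start in Actl7a, 36 in Actl7b and 60 in Actl9. It is in 3 of the 8 promoters, and 3.41% of 27025 genes with a promoter in the table have it. The full palindrome TGACGTCA is in none of the 8 and in the promoters of 1.77% of all genes. Actrt1, Actrt2 and Actrt3, which were also far under Con in busulfan testis, hold neither form in this window. For the conventional actins, capitals mark a CArG box in Actg1 and 2 copies with 1 core base changed in Acta2. The regions are chr19:34255374-34255623 for Acta2 and chr11:120348496-120348745 for Actg1, both on the minus strand.
Acta2: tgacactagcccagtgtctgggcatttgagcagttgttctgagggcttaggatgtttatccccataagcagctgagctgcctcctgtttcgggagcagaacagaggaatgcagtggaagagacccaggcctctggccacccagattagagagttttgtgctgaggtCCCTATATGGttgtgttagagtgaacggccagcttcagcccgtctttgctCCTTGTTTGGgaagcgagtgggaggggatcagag
Actg1: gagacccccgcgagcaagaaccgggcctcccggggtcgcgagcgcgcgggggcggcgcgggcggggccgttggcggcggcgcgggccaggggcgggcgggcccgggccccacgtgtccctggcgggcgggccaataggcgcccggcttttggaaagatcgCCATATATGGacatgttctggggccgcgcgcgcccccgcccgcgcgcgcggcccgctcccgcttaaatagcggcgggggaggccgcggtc

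The 2 matches in Acta2 begin 84 and 34 bases before the start, and the match in Actg1 begins 90 bases before it. The CArG box is in the promoters of 1.62% of genes, and the form with 1 core base changed is in 8.33%, Actl7a among them. The gene structures differ too. Acta2 and Actg2 have 9 exons each and Actb and Actg1 have 6, while Actl7a, Actl7b, Actl9, Actrt1 and Actrt2 have 1 and Actrt3 has 2. Coding identity is 88.7% between Actb and Actg1, 69.5% between Actrt1 and Actrt2 and 60.4% between Actl7a and Actl7b. Between a conventional actin and an actin-like gene it runs from 48.5% to 60.7%. None of the 50-base windows of the 6 actin-like transcripts occurs in another annotated gene's transcript.

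**Figure D1:**
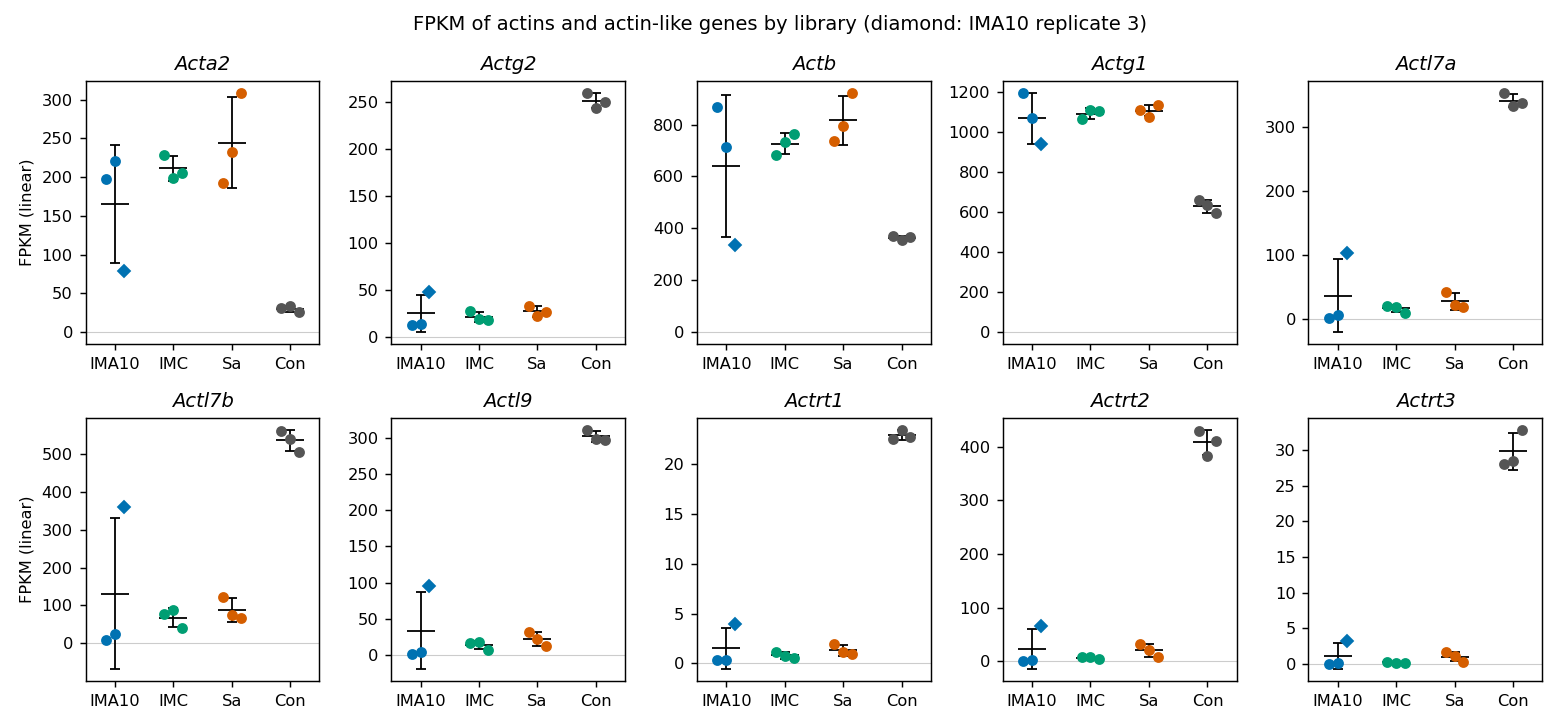
FPKM of each of the 10 genes (linear axis, 1 panel per gene) in the 12 libraries by group; points are libraries, bars are group mean ± SD, and the diamond is IMA10 replicate 3. Acta2 runs between 78.9 and 309 FPKM in busulfan libraries, against 26.0 to 34.0 FPKM in Con libraries, while Actg2 runs between 13.2 and 48.1 FPKM in busulfan libraries, against 243.9 to 259.6 FPKM in Con libraries.

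Acta2 (Gene ID 11475) was the conventional actin that differed most upward. In order of replicate number it had 198, 220.3 and 78.9 FPKM in IMA10, 229, 199.5 and 205 FPKM in IMC, 192, 233 and 309 FPKM in Sa, and 30.8, 34.0 and 26.0 FPKM in Con. All 9 busulfan libraries lay above all 3 Con libraries, and IMA10 replicate 3 was the lowest of the 9. Separation from Con, here and for the genes below, was not particular to these genes. Between Sa and Con, 88.2% of the 15472 genes tested had groups that did not overlap. The mean of Acta2 was 244.6 ± 59.0 FPKM in Sa, against 30.3 ± 4.03 FPKM in Con (SD, n = 3 each). On the log2(FPKM + 1) scale the difference was 2.95 ± 0.35 (SE). In bulk tissue, fewer cells of a type and less RNA per cell cannot be told apart, here and in every result that follows.

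Actg2 (Gene ID 11468) went the other way. It had 13.2, 14.1 and 48.1 FPKM in IMA10, 27.8, 19.0 and 18.1 FPKM in IMC, 33.6, 22.4 and 26.6 FPKM in Sa, and 259.6, 244 and 249.99 FPKM in Con. All 9 busulfan libraries lay below all Con libraries, and IMA10 replicate 3, the lowest for Acta2, was the highest of the 9 for Actg2. The mean was 27.5 ± 5.65 FPKM in Sa, against 251 ± 7.89 FPKM in Con (SD, n = 3 each), a log2 difference of -3.16 ± 0.42 (SE). The ratio of Acta2 to Actg2 was 15.1, 15.7 and 1.64 in IMA10, 8.25, 10.5 and 11.3 in IMC, 5.72, 10.4 and 11.6 in Sa, and 0.119, 0.14 and 0.104 in Con. It was above 1 in each busulfan library and below 1 in each Con library.

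The coding sequences of Acta2 and Actg2 are 84.2% identical in the GENCODE annotation, which raises the question whether reads of the pair could be exchanged in counting. None of the 50-base windows of the Actg2 transcript occurs in a transcript of another annotated gene, and 0.352% of the Acta2 windows do. How the authors counted reads of similar genes is not given in the sources used here.

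Among the cytoplasmic actins, Actb (Gene ID 11461) had 867, 714 and 336 FPKM in IMA10, 683, 731 and 763 FPKM in IMC, 736, 793 and 921 FPKM in Sa, and 372, 357 and 366 FPKM in Con. IMA10 replicate 3 lay below all Con libraries, and the other 8 busulfan libraries lay above them. Actg1 (Gene ID 11465), the most abundant of the 10 genes in every library, had 1192, 1071 and 938 FPKM in IMA10, 1062, 1107 and 1106 FPKM in IMC, 1111, 1075 and 1132 FPKM in Sa, and 659.7, 633 and 593 FPKM in Con. No busulfan library overlapped Con for Actg1. The Actg1 to Actb ratio was 2.79 in IMA10 replicate 3 and between 1.23 and 1.78 in the other 11 libraries.

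How far the cytoplasmic actins were raised depends on the scaling. The log2 difference between Sa and Con was 1.15 ± 0.29 for Actb and 0.82 ± 0.14 for Actg1 (SE), where the median of all genes tested was 0.60. After median-of-ratios scaling, which moved the median of all genes to -0.02, the differences were 0.35 ± 0.27 for Actb and 0.01 ± 0.14 for Actg1. Acta2 then stood at 2.17 ± 0.31 and Actg2 at -3.95 ± 0.46. With quantile normalization, where the median was 0.19, Actb was at 1.72 ± 0.31 and Actg1 at 1.48 ± 0.16. Shared sequence is a further limit for this pair: 56.7% of the 50-base windows of the Actg1 transcript and 14.2% of those of Actb occur in transcripts of other annotated genes, so the counting of shared reads could move both. For Actg1 the annotated gene Gm12715 alone shares 51.1% of the windows.

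The actin-like genes made up a large part of the actin family message in untreated testis. Together the 6 genes held 0.586%, 1.82% and 31.1% of the summed FPKM of the 10 genes in IMA10, 5.85%, 6.07% and 2.83% in IMC, 10.1%, 6.34% and 4.26% in Sa, and 56.4%, 55.9% and 56.6% in Con. Apart from IMA10 replicate 3, no busulfan library exceeded 10.1%. Actb and Actg1 together held 62.6% to 90.2% in IMA10, 82.1% to 86.8% in IMC, 80.1% to 82.4% in Sa and 33.7% to 34.4% in Con.

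**Figure D2:**
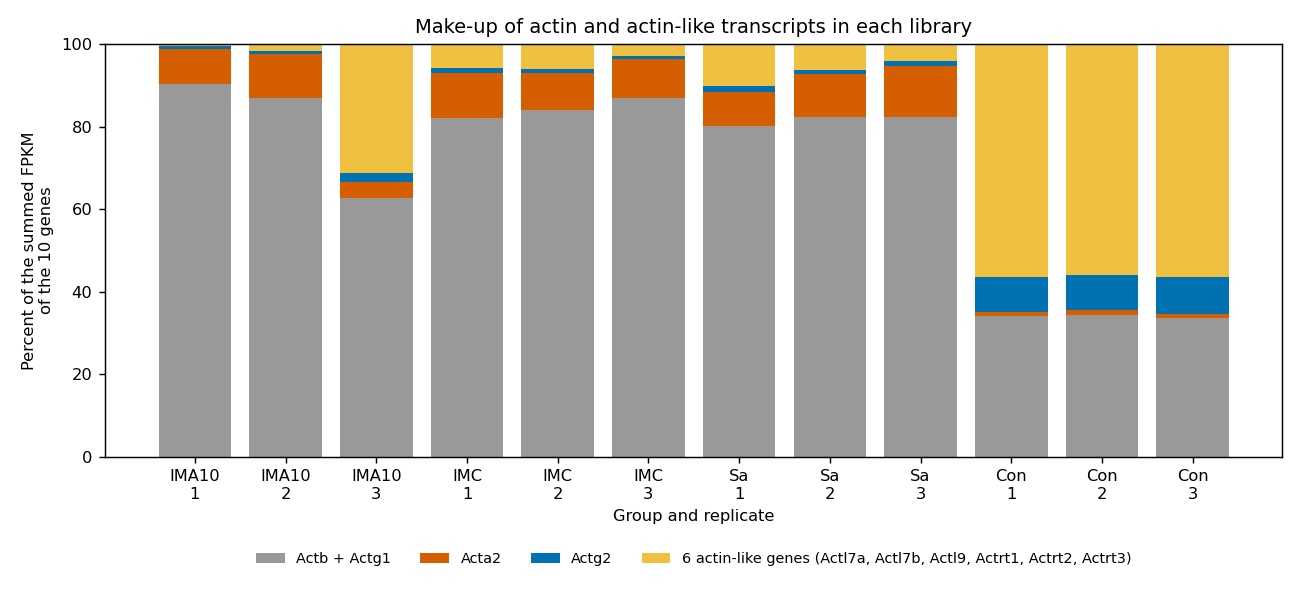
Percent of the summed FPKM of the 10 genes held by Actb with Actg1, by Acta2, by Actg2 and by the 6 actin-like genes, 1 stacked bar per library. The actin-like share is 31.1% in IMA10 replicate 3 and at most 10.1% in the other busulfan libraries, against 55.9% to 56.6% in Con.

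Actl7b and Actl7a are neighbours on chromosome 4 and lie on opposite strands. Actl7b (Gene ID 11471) had 8.83, 23.9 and 362 FPKM in IMA10, 77.7, 87.1 and 39.1 FPKM in IMC, 123, 75.3 and 66.0 FPKM in Sa, and 563, 542 and 507 FPKM in Con. Actl7a (Gene ID 11470) had 2.18, 6.04 and 103 FPKM in IMA10, 21.1, 19.8 and 10.5 FPKM in IMC, 42.3, 22.8 and 18.5 FPKM in Sa, and 353, 333 and 337 FPKM in Con. For both genes IMA10 replicate 3 lay between the Con libraries and all other busulfan libraries, and no busulfan library reached Con. The pair did not differ from Con to the same degree. The ratio of Actl7b to Actl7a was 3.51 to 4.05 in IMA10, 3.68 to 4.41 in IMC and 2.91 to 3.56 in Sa, against 1.51 to 1.63 in Con, and no busulfan library overlapped Con. The log2 difference between Sa and Con was -2.65 ± 1.03 for Actl7b, the nearest to 0 among the 6 genes, and -3.65 ± 1.01 for Actl7a (SE).

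Actl9 (Gene ID 69481), whose human counterpart is needed to anchor the acrosome, had 1.34, 4.34 and 94.8 FPKM in IMA10, 15.8, 17.8 and 6.65 FPKM in IMC, 32.2, 21.5 and 12.5 FPKM in Sa, and 311, 298 and 298 FPKM in Con. The Sa to Con difference was -3.81 ± 1.08 (SE, log2). Actrt2 (Gene ID 73353) had a Sa to Con difference of -4.44 ± 1.09 (SE, log2), the lowest of the 6 on the log2(FPKM + 1) scale. By group mean, however, Actrt3 was further below Con, at 3.41% of the Con mean in Sa, where Actrt2 was at 5.02%. Actrt2 had 0.72, 2.75 and 66.6 FPKM in IMA10, 8.41, 7.27 and 4.17 FPKM in IMC, 31.6, 21.9 and 7.90 FPKM in Sa, and 430.1, 383 and 411 FPKM in Con. For Actl9 and Actrt2 the Con libraries lay above every busulfan library, and the spread within Sa and within IMA10 was wide relative to the mean.

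Actrt1 and Actrt3 were less abundant. Actrt1 (Gene ID 73360) had 0.32, 0.33 and 3.91 FPKM in IMA10, 1.18, 0.74 and 0.51 FPKM in IMC, 1.92, 1.12 and 0.91 FPKM in Sa, and 22.6, 23.4 and 22.7 FPKM in Con. Actrt3 (Gene ID 76652) was listed at 0 in IMA10 replicate 1, with 0.10 and 3.21 FPKM in IMA10 replicates 2 and 3. It had 0.30, 0.16 and 0.13 FPKM in IMC, 1.68, 1.06 and 0.31 FPKM in Sa, and 28.1, 28.5 and 32.9 FPKM in Con. Both genes were far under their Con levels in all 9 busulfan libraries. Their Sa to Con differences were -3.39 ± 0.44 for Actrt1 and -3.99 ± 0.48 for Actrt3 (SE, log2), values that understate the change because the levels approach the pseudocount of 1. In Con, the order of levels was Actg1, Actl7b, Actrt2, Actb, Actl7a, Actl9, Actg2, Acta2, Actrt3 and Actrt1. Only Acta2 and Actrt3 were neighbours whose Con libraries overlapped in that order. In Sa the order by mean was Actg1, Actb, Acta2, Actl7b, Actl7a, Actg2, Actl9, Actrt2, Actrt1 and Actrt3. There, the libraries of Actl7a, Actg2, Actl9 and Actrt2 overlapped, as did those of Actrt1 and Actrt3.

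**Figure D3:**
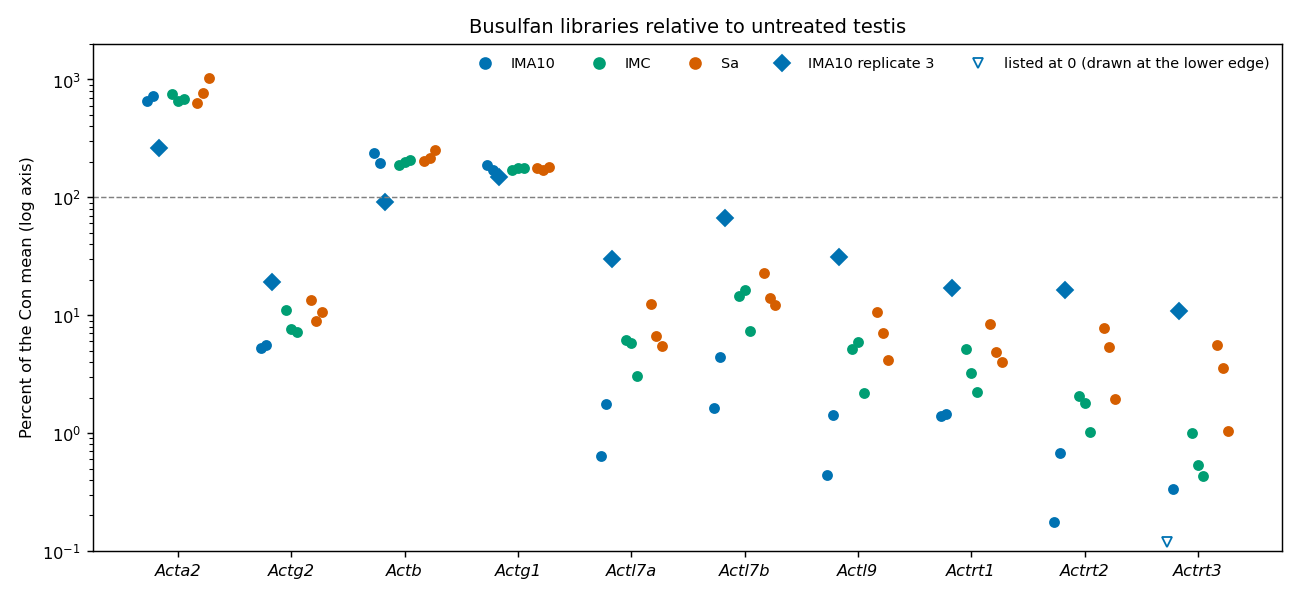
Level of each gene in each of the 9 busulfan libraries as a percent of its Con mean (log axis; dashed line at 100; diamonds mark IMA10 replicate 3, and the open triangle at the lower edge is a value listed at 0). Without IMA10 replicate 3 the libraries lie at 635% to 1019% for Acta2 and at 5.24% to 13.4% for Actg2.

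The plot of levels relative to Con shows where Actg2 sits. Leaving out IMA10 replicate 3, the 8 busulfan libraries held 5.24% to 13.4% of the Con mean of Actg2. For the actin-like genes the same 8 libraries held 0.640% to 12.4% (Actl7a), 1.64% to 22.9% (Actl7b), 0.443% to 10.7% (Actl9), 1.40% to 8.38% (Actrt1), 0.177% to 7.76% (Actrt2) and at most 5.64% (Actrt3). The floor of the range was higher for Actg2 than for any of the 6. In IMA10 replicate 3, Actl7b was at 67.3% of Con, Actl9 at 31.3%, Actl7a at 30.2%, Actg2 at 19.2%, Actrt1 at 17.1%, Actrt2 at 16.3% and Actrt3 at 10.8%. In the same library Acta2 was at 261%, Actg1 at 149% and Actb at 92.0%.

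Germ cell markers moved with these genes, and their part in the results was not tested. Elongating spermatid markers summed to 41.1 to 4022 FPKM in IMA10, 154 to 339 FPKM in IMC, 260.3 to 2321 FPKM in Sa and 43650 to 46180 FPKM in Con, and none of the 10 was at 0 in any library. Round spermatid markers summed to 20.5 to 974 FPKM in IMA10, 88.2 to 201 FPKM in IMC, 149 to 368 FPKM in Sa and 3056 to 3300 FPKM in Con, with Izumo1 at 0 in IMA10 replicate 1. Pachytene spermatocyte markers summed to 158 to 5970 FPKM in IMA10, 636 to 1592 FPKM in IMC, 1101 to 2099 FPKM in Sa and 7362 to 7658 FPKM in Con. IMA10 replicate 3 gave the highest IMA10 sum in all 3 lists. Its marker levels had a median of 98.0% of the Con mean for pachytene spermatocytes, 45.4% for round spermatids and 9.98% for elongating spermatids.

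The genes whose profiles over the 12 libraries lay nearest to each smooth muscle actin were ranked among 10645 genes, by the root mean square difference of centred log2(FPKM + 1) values. The nearest to Actg2 was Actrt1, at 0.152, followed by Vwa3a at 0.185, Slc36a3 at 0.219, Dyrk4 at 0.221 and Clpb at 0.223. The other actin-like genes ranked much lower for Actg2, with Actrt3 at 235, Actl7b at 1013, Actl7a at 1189, Actl9 at 1792 and Actrt2 at 2860. The nearest to Acta2 was Tpm2, a tropomyosin of muscle filaments, at 0.130, followed by Csrp1 at 0.138, Ece1 at 0.142, Lamc3 at 0.143 and Rasl12 at 0.153. These ranks describe 12 libraries that fall into clusters, and the contrast between busulfan and untreated testis, by which the 10 genes were chosen, is part of every profile. They also depend on the settings. Without IMA10 replicate 3, Actrt1 was still first for Actg2 and 2 of the 5 genes were kept, against 4 of 5 for Acta2. With a pseudocount of 0.1, Actrt1 ranked 245 for Actg2, and Clpb was nearest, followed by Klhl10, Sncaip, Cap2 and Ak1.

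Whether the transferred microbiota changed these genes was asked within the busulfan groups, where the tests share the Sa libraries with the contrast on which the genes were chosen. Between IMC and Sa none of the 10 genes passed the test, and 0% of all genes tested did (limma with Benjamini-Hochberg adjustment over 15472 genes, adjusted p = 1 for each of the 10). At an unadjusted p under 0.05 there were 134 genes. All 10 differences lay below 0, from -1.35 for Actrt2 to -0.02 for Actg1. The SE was 1.09 for Actrt2 and 0.14 for Actg1. Apart from Actrt2 and Actrt3 (-0.695 with an SE of 0.479), each difference was smaller than its SE. Only Actrt3 had groups that did not overlap, at 0.13 to 0.30 FPKM in IMC, against 0.31 to 1.68 FPKM in Sa, where 9.33% of all genes had no overlap.

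Between IMA10 and Sa none of the 10 genes passed either, and again 0% of all genes did (limma, smallest adjusted p of the 10 = 0.901; 928 genes at an unadjusted p under 0.05). The differences ran from -1.31 to -0.06. No gene of the 10 had groups without overlap, against 7.81% of all genes. This comparison turns on IMA10 replicate 3. Without it, 7 of the 10 genes were lower in IMA10 at an adjusted p under 0.05, while 24.5% of all genes tested were called lower. They were all 6 actin-like genes and Actg2. The library had been set apart by its place along the first principal component of these same data. It also had the highest IMA10 level of each of the 7 genes. Leaving it out lowers the IMA10 mean and narrows the spread, with the SE of Actl7b at 0.43, against 1.03 with it. The calls that follow are therefore a description and not independent support. Actg2 fell by 0.95 on the log2 scale, to 13.2 and 14.1 FPKM in IMA10 replicates 1 and 2, against 22.4 to 33.6 FPKM in Sa (SE 0.19, limma adjusted p = 0.0136). Actl7a was at -2.52 ± 0.42, Actl7b at -2.46 ± 0.43, Actl9 at -2.61 ± 0.48 and Actrt2 at -2.89 ± 0.51, each with a limma adjusted p = 0.0136. Actrt1, at -0.78 ± 0.20, and Actrt3, at -0.88 ± 0.25, had limma adjusted p-values of 0.0187 and 0.0263. These 2 calls rest on values near the floor. In IMA10 replicates 1 and 2, Actrt1 had 0.32 and 0.33 FPKM and Actrt3 had 0 and 0.10 FPKM, and neither exceeded 1.92 FPKM in Sa.

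The other conventional actins did not pass there. Acta2 was at -0.20 ± 0.18, Actb at -0.05 ± 0.12 and Actg1 at 0.03 ± 0.09 (SE, log2, limma adjusted p = 0.427, 0.791 and 0.82). Leaving that library out, elongating, round and pachytene germ cell markers fell in IMA10 against Sa in 10 of 10, 10 of 10 and 7 of 8 genes, and smooth muscle contractile genes in 0 of 13. Sertoli cell markers rose in 10 of 10 genes (median 0.65), and Leydig cell markers in 0 of 7. In that fit 4931 of the 15472 genes tested were called in either direction, 3795 of them lower. The part of these markers in the 7 calls was not tested.

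Between IMA10 and IMC none of the 10 genes passed the test, and 0% of all genes tested did (limma, adjusted p = 1 for each of the 10; 328 genes at an unadjusted p under 0.05). With all 12 libraries 3 differences were above 0 and 7 below. None of the 10 had groups without overlap, beside 3.36% of all genes. Without IMA10 replicate 3 none of the 10 passed, where 0.0129% of genes did. The 3 nearest to the threshold were Actl7a at -1.88 ± 0.42, Actl7b at -2.06 ± 0.43 and Actl9 at -1.92 ± 0.48 (limma adjusted p = 0.0735 for each). The log2 difference between Acta2 and Actg2 within a library was compared among the busulfan groups only, and its contrast with Con was not tested. Its mean was 2.80 in IMA10 and 3.25 in IMC, against 3.10 in Sa. An exact two-sided permutation test gave p = 0.8 for IMC against Sa, p = 1 for IMA10 against Sa and p = 1 for IMA10 against IMC, where 3 libraries against 3 cannot give less than 0.1. Without IMA10 replicate 3 the mean in IMA10 was above those in IMC and in Sa, by 0.593 and 0.75.

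**Figure D4:**
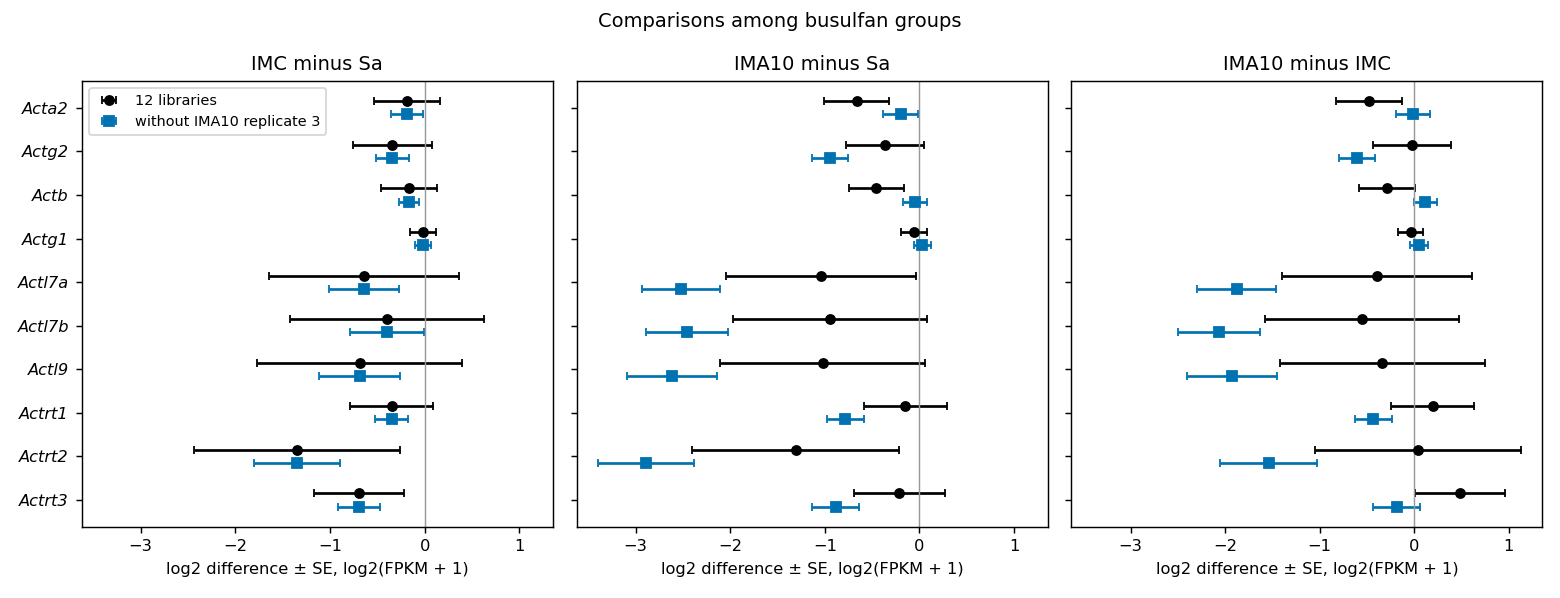
Log2 difference ± SE of each of the 10 genes for IMC minus Sa, IMA10 minus Sa and IMA10 minus IMC, on log2(FPKM + 1), with all 12 libraries (circles) and without IMA10 replicate 3 (squares). In IMA10 minus Sa the squares of Actg2 and the 6 actin-like genes lie between -2.89 and -0.78, those of Acta2, Actb and Actg1 between -0.20 and 0.03.

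Genes that build or turn over actin filaments outside the 10 were tested between Sa and Con, part of the contrast on which the 10 were chosen. These lists were also chosen with earlier results of these data known. Their calls, here and below, are therefore a description and not independent support. Between Sa and Con 52% of all genes tested were called higher and 19.2% lower. After median-of-ratios scaling 5831 genes were called higher and 6060 lower, against 8052 and 2963 before it. Genes of smooth muscle contraction, a list without Acta2, were higher in Sa than in Con. All 13 tested members of that list rose (median log2 difference 2.21, beside 0.60 over all genes), and 12 rose after median-of-ratios scaling. Of these, Synpo2 was under 1 FPKM in every Con library and passed the filter only through busulfan libraries. Myl9, a regulatory light chain of smooth muscle myosin, reached 426.5 ± 73.2 FPKM in Sa, against 51.1 ± 6.98 FPKM in Con (SD, n = 3). Tagln, a calponin relative on smooth muscle filaments, rose by 2.52 ± 0.29, the myosin heavy chain Myh11 by 2.37 ± 0.31 and Tpm2 by 2.74 ± 0.37 (SE, limma adjusted p = 0.000285, 0.000351 and 0.000353). The list summed to 256 to 909 FPKM in IMA10, 699.5 to 812 FPKM in IMC, 630 to 894 FPKM in Sa and 106 to 127 FPKM in Con. Markers of vascular mural cells rose in 7 of 7 genes (median 1.74), Mcam by 2.30 ± 0.22 (limma adjusted p = 0.00013) and Abcc9 by 1.55 ± 0.24. However, 4 of the 7, Abcc9 among them, were under 1 FPKM in every Con library. They passed the filter only through busulfan libraries, so the filter favoured a rise for them. Skeletal muscle markers, 7 in all, summed to at most 3.22 FPKM in any library.

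**Figure D5:**
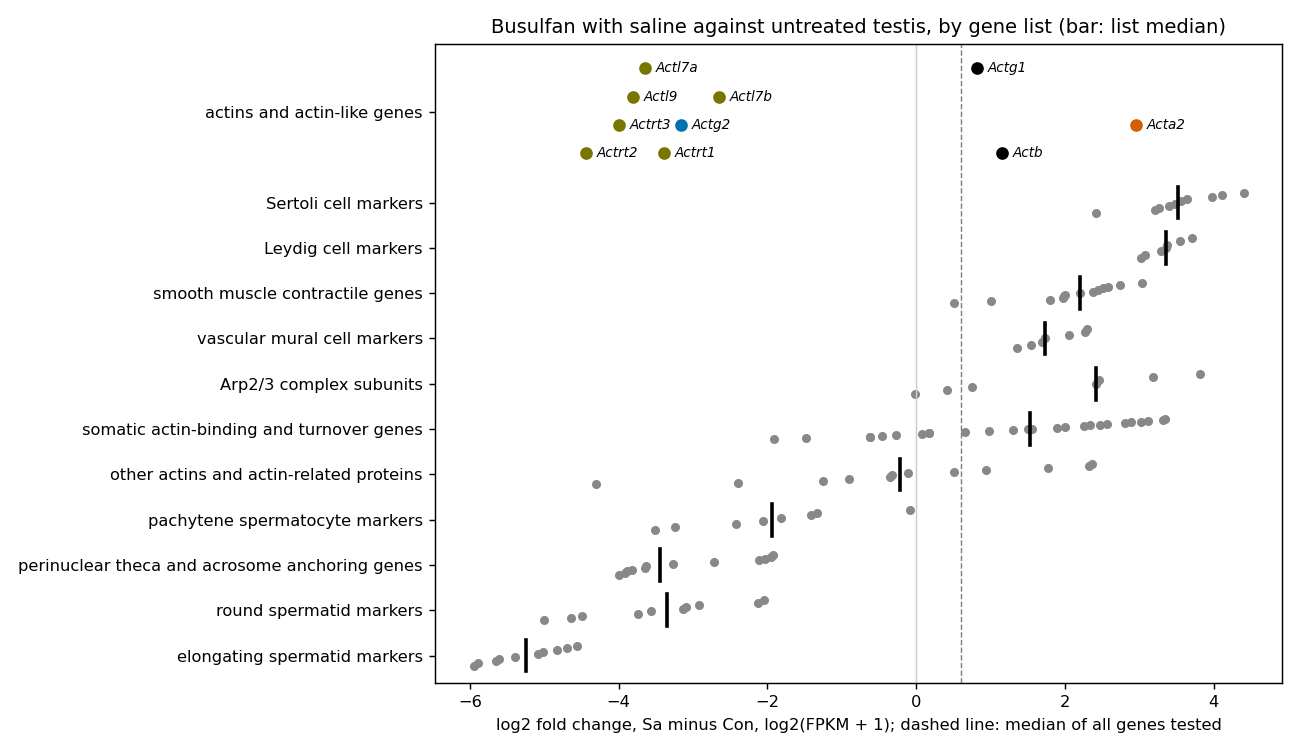
Log2 difference of each gene between Sa and Con, on log2(FPKM + 1): the 10 genes in the top rows by name, and each other list in a row (grey points are genes, bars are list medians, and the dashed line is the median of 0.60 over all genes tested). Actg2 at -3.16 lies within the ranges of the actin-like genes (-4.44 to -2.65), round spermatid markers (-5.01 to -2.05) and pachytene spermatocyte markers (-3.51 to -0.08) and above that of elongating spermatid markers (-5.95 to -4.56), and Acta2 at 2.95 lies beyond the smooth muscle median of 2.21.

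The Arp2/3 complex starts new filaments on the side of existing ones. Of its 7 tested Arpc subunit genes 6 rose and none fell (median 2.42), where 52% of all genes tested were called higher and 19.2% lower. After median-of-ratios scaling, however, 4 rose and 2 fell, with Arpc2 at -0.05. Arpc1b rose by 3.82 ± 0.58, Arpc5 by 3.19 ± 0.49 and Arpc3 by 2.46 ± 0.36 (SE, limma adjusted p = 0.000399, 0.000403 and 0.000364), while Arpc5l was at -0.02 ± 0.17 (limma adjusted p = 0.932) and at 0.28 with quantile normalization. Among 16 other actins and actin-related genes 12 could be tested, of which 5 rose and 3 fell (median -0.22), or 3 and 7 after median-of-ratios scaling and 5 and 6 without IMA10 replicate 3. Actr3, the ARP3 subunit itself, rose by 2.37 ± 0.37 and the dynactin gene Actr1b by 0.94 ± 0.16 (limma adjusted p = 0.000414 and 0.000582). Actr3b, a close relative of Actr3, rose by 2.32 ± 0.44. It was under 1 FPKM in every Con library and passed the filter only through busulfan libraries. Actr2 and Actr5 also rose and are named because the count is small. Actl11 fell by 4.30 ± 0.97, Actl10 by 2.39 ± 0.67 and the dynactin gene Actr10 by 1.25 ± 0.42 (limma adjusted p = 0.00265, 0.0086 and 0.0224). The striated muscle actins Acta1 and Actc1 stayed at or under 0.25 FPKM in every library.

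Of 26 genes that bind or recycle actin, listed as somatic, 17 rose and 3 fell (median 1.53). Among all genes tested, 52% were called higher and 19.2% lower. In which cells the 26 genes are expressed was not tested. After median-of-ratios scaling 14 rose and 9 fell, where 5831 and 6060 of 15472 genes did. Without IMA10 replicate 3, 5 fell, and 1 fell without Sa replicate 2. Movement in both directions was thus not particular to this list. Flna, which crosslinks filaments, rose by 2.57 ± 0.31, and Cap1, which recycles monomers, by 0.98 ± 0.13 (SE, limma adjusted p = 0.000298 and 0.000355). The monomer-binding profilin Pfn1 rose to 277 ± 20.5 FPKM in Sa, against 97.1 ± 3.38 FPKM in Con (SD, n = 3; limma adjusted p = 0.000351). Vasp, an elongation factor of filament ends, fell by 1.48 ± 0.23, the monomer-binding Tmsb10 by 1.91 ± 0.71 and the capping protein subunit Capzb by 0.45 ± 0.14 (limma adjusted p = 0.000402, 0.0334 and 0.0131), though Capzb stood at 0.01 with quantile normalization. Genes of the perinuclear theca and of acrosome anchoring, where several of the actin-like proteins reside, fell in 8 of 12 cases and rose in none (median -3.45), and all 12 fell without IMA10 replicate 3, where 30% of all genes were called lower. Wbp2nl, a theca protein, fell by 3.92 ± 0.71, the spermatid profilin Pfn3 by 3.65 ± 0.73 and the cylicin Cylc1 by 3.27 ± 0.55 (limma adjusted p = 0.000805, 0.00132 and 0.000558). Pfn4, the most abundant of the list, was at 56.9 ± 18.8 FPKM in Sa, against 240.2 ± 8.83 FPKM in Con, and did not pass (SD, n = 3; limma adjusted p = 0.0761). The 12 genes summed to 22.4 to 769 FPKM in IMA10, 77.6 to 201 FPKM in IMC, 133 to 240.3 FPKM in Sa and 1112 to 1213 FPKM in Con.

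Of the germ cell lists, elongating spermatid markers fell in 10 of 10 genes between Sa and Con (median -5.24) and round spermatid markers in 8 of 10 (median -3.35). Beside them, 19.2% of all genes tested were called lower. Pachytene spermatocyte markers fell in 2 of 8 (median -1.94), near the share of all genes. They fell in 7 without IMA10 replicate 3, where 30% of all genes did, and in 5 without IMA10 replicate 1, where 3694 of 15472 genes did. The count was 1 when Sa replicate 2 or 3 or Con replicate 1 was left out (2217, 2018 and 2251 genes called lower). After median-of-ratios scaling it was 8 (6060 genes called lower). Somatic markers went the other way, with Sertoli cell genes higher in 10 of 10 (median 3.52) and Leydig cell genes in 7 of 7 (median 3.36), beside 52% of all genes. The Sertoli gene Amh was under 1 FPKM in every Con library and passed the filter only through busulfan libraries. A single gene each of the skeletal muscle and epididymis lists could be tested, and neither passed.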

How the data were processed

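RNA of 12 testis libraries, 3 in each of 4 groups, was analysed from the deposited table of FPKM values with 2 decimals, 1 column per library, per the file headers. No source used here names the aligner, the counting rule, the genome build or the annotation. Of 22221 rows, 20141 were given symbols through their NCBI Gene IDs. FPKM divides by each library's total, so a fall in abundant transcripts raises all others.

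Values were analysed as log2(FPKM + 1), which understates changes of low genes, for the 15472 rows that reached 1 FPKM in 3 or more libraries. A model with a mean for each group was fitted to all 12 libraries with limma 3.58.1 under R 4.3.3, using its variance trend and Benjamini-Hochberg adjustment over all rows (threshold 0.05). Errors are moderated SEs of differences and SDs of levels. Read depth is unknown. Beside all 10 genes, the text names up to 3 genes with the smallest p per direction and the most abundant gene of each list, and the 5 nearest profiles among genes reaching 5 FPKM. The 10 genes and the 13 other lists were chosen with earlier results of these data known. Alternatives were a pseudocount of 0.1, no filter, a filter of 5 FPKM, median-of-ratios scaling, quantile normalization, a replicate block, fits of only the groups compared, and leaving out each library. Promoters come from RefSeq (GRCm38.p6), and transcripts from the GENCODE annotation. SciPy 1.17.1 gave the permutation tests.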

Additional observations from a re-analysis of the deposited data

How the results depend on the processing

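Between Sa and Con, 6060 genes were called lower with median-of-ratios scaling, 4514 with quantile normalization and 4765 in a fit of only the groups compared, against 2963. With median-of-ratios scaling, 3 other actin-related genes rose and 7 fell, 2 Arp2/3 genes fell, and 9 actin-binding and 8 pachytene genes fell, as did 1 skeletal muscle and 1 epididymis gene (1 and 1 with quantile normalization). In the fit of only the groups compared, 6 other actin-related, 6 actin-binding, 7 pachytene and 1 epididymis gene fell. A filter of 5 FPKM left 3 mural markers that rose. With no filter, 2 skeletal muscle markers rose and 1 fell, and 1 gene was called between IMC and Sa and 2 between IMA10 and Sa. A pseudocount of 0.1 gave 1 and 1. The causes were not tested.

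Some directions turned, among them those of the called genes Arpc2, at 0.75 before, and Capzb, at -0.45 before. With median-of-ratios scaling, Actg1 was at 0.064 (IMC minus Sa), 0.18 (IMA10 minus Sa) and 0.12 (IMA10 minus IMC), Actrt1 at 0.011 (IMA10 minus Sa), Actg2 at 0.13 (IMA10 minus IMC) and Arpc2 at -0.051 (Sa minus Con). With quantile normalization, Actrt1 was at 0.29 and Actrt3 at 0.066 (IMA10 minus Sa), Actg2 at 0.048 (IMA10 minus IMC), and Actr1a at 0.071, Arpc5l at 0.28 and Capzb at 0.010 (Sa minus Con). With a pseudocount of 0.1, Actrt2 was at -0.26 (IMA10 minus IMC).

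Leaving out 1 library at a time, genes called lower between Sa and Con ranged from 2018 to 4648, genes called between IMA10 and Sa from 0 to 4931 and members of the set of 10 from 0 to 7, and genes called between IMA10 and IMC from 0 to 2. The highest count came without IMA10 replicate 3 in each case, and 1 gene was called in each of these microbiota comparisons without Sa replicate 3. Genes that fell ranged from 2 to 6 (other actin-related), from 1 to 5 (actin-binding), from 1 to 7 (pachytene) and from 0 to 1 (epididymis). The highest counts again came without IMA10 replicate 3. The actin-binding count was 1 without Sa replicate 2, and the pachytene count was 1 without Sa replicate 2 or 3 or Con replicate 1 and 5 without IMA10 replicate 1. The epididymis count was also 1 without IMA10 replicate 1. The Acta2 to Actg2 difference ranged from -0.15 to 0.35 (IMC minus Sa), -0.84 to 0.75 (IMA10 minus Sa) and -0.995 to 0.593 (IMA10 minus IMC). For IMA10 minus IMC the ranges were -0.61 to 0.29 for Actg2, -0.57 to 0.12 for Actb, -0.12 to 0.05 for Actg1, -1.88 to 0.64 for Actl7a, -2.06 to 0.54 for Actl7b, -1.92 to 0.75 for Actl9, -0.43 to 0.51 for Actrt1, -1.54 to 1.11 for Actrt2 and -0.19 to 0.85 for Actrt3. For IMA10 minus Sa they were -0.142 to 0.031 for Actg1, -2.46 to 0.15 for Actl7b, -2.61 to 0.067 for Actl9, -0.78 to 0.17 for Actrt1 and -0.88 to 0.15 for Actrt3. Actg1 ranged from -0.039 to 0.001 for IMC minus Sa, and Arpc5l from -0.081 to 0.052 for Sa minus Con. These IMA10 ranges end at the fit without IMA10 replicate 3 on 1 side.

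The replicate number did not pair the libraries. Deviations of same-numbered libraries from their group means correlated between -0.765 and 0.546. With the replicate block, 7820 genes were called higher and 2481 lower between Sa and Con, and 0 in each microbiota comparison. For 49 genes named under 19 alternatives, 878 of 927 values kept direction and side of the threshold.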
